A study of Mus musculus with 12 samples.

Results

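Open chromatin was compared between MS275-treated and vehicle-treated mice on 4 autosomes that sit at the ends of the range of the ratio of open regions between these groups: chromosomes 11 and 19, called gene-dense here, and chromosomes 3 and 13, called gene-poor. The mice (C57BL/6, 6 to 8 weeks old) had undergone dorsal column axotomy, a cut through the ascending sensory tracts of the spinal cord, and their lumbar dorsal root ganglia (L4 to L6) were collected 24 h later. MS275 (12 mg/kg) or its vehicle of Tween80, PEG300 and DMSO was injected into the peritoneum when the lesion was made and a second time 2 h before collection. All animals were injured, so neither group is an uninjured control. ATAC-seq, in which a transposase cuts accessible DNA, used 1 mouse per sample with 3 samples per treatment, and the deposited peak lists combine those 3 into 1 list per treatment. RNA-seq used ganglia of 2 mice per library and 3 libraries per treatment.

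A region is a set of overlapping entries of 1 peak list, merged. Of 339694 regions in the 2 lists, 59731 lay on the 4 chromosomes. Chromosomes 11 and 19 held 17442 regions of the vehicle list and 13277 of the MS275 list. Chromosomes 3 and 13 held 13870 and 15142. The chromosomes were chosen with these counts known, so the counts describe the choice and carry no test. With 1 list per treatment there is no replicate check on any region count. The intervals given are exact (Clopper-Pearson) 95% intervals that cover counting error only, and neighbouring regions are not independent.

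As background, MS275 (entinostat) inhibits class I histone deacetylases, enzymes that remove acetyl groups from histone tails. Acetylated histones hold DNA less tightly, and acetylation and accessibility are both concentrated at active promoters and enhancers. Mammalian chromosomes alternate between gene-rich domains, which are rich in G and C, replicate early and lie towards the nuclear interior, and gene-poor domains, which are rich in A and T, replicate late and lie towards the nuclear lamina. Many promoters lie in CpG islands, stretches that keep the CG pairs lost from most of the genome.

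Promoter windows show sequence from a part of these regions only. On the 4 chromosomes, 19.7% of vehicle and 19.9% of MS275 regions lay within 1000 bp of either end of a gene. The first set of windows comes from the 1 Mb bin with most genes on each chromosome and belongs to its tested gene of highest RNA level that has a RefSeq promoter. Each window runs from 250 bases before to 50 after a RefSeq start (GRCm38.p6, the assembly of mm10), is written 5′ to 3′ on the gene's strand, and has its CG pairs in capitals. Eif5a (a translation factor) lies at chr11:69920581-69920880 on the minus strand, Cfl1 (cofilin, which severs actin filaments) at chr19:5490205-5490504 on the plus strand, Txnip (an inhibitor of thioredoxin) at chr3:96557707-96558006 on the plus strand, and Hist1h1c (a linker histone) at chr13:23738557-23738856 on the plus strand. All 4 windows overlapped a region in both lists. For Eif5a, which has 6 RefSeq promoters, a window that did so was preferred. The other genes have 1 each.
Eif5a: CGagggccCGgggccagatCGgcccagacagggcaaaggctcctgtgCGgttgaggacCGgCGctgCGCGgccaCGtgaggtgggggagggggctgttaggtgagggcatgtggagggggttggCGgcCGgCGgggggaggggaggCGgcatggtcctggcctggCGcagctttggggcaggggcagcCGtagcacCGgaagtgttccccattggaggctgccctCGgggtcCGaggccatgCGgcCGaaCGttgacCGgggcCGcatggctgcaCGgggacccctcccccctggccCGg
Cfl1: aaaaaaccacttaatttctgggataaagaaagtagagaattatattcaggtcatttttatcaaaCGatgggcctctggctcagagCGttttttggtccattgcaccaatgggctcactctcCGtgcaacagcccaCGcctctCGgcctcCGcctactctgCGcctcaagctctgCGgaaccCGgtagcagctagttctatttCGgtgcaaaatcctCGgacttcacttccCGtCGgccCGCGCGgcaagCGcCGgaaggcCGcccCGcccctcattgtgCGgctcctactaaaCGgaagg
Txnip: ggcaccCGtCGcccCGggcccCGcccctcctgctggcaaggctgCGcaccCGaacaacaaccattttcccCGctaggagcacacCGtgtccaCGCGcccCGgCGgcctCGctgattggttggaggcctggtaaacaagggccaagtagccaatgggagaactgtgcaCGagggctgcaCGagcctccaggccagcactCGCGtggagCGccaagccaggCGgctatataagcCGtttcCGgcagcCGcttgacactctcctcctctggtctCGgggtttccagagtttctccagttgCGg
Hist1h1c: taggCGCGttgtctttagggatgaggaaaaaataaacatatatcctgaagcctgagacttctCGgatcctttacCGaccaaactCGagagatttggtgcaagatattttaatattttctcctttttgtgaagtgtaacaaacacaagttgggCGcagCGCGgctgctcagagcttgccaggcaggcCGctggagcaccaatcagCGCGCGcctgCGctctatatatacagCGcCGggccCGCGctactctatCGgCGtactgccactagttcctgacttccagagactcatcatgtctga

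These 4 windows held 25, 22, 24 and 19 CG pairs. In the vehicle list, the regions over Eif5a, Cfl1, Txnip and Hist1h1c were 1642, 1417, 448 and 1788 bp wide, with fold enrichments of 4.56, 1.98, 4.14 and 3.96. In the MS275 list they were 1913, 871, 404 and 1505 bp wide, with fold enrichments of 4.95, 2.35, 4.32 and 3.88. Fold enrichment and q are the authors' values throughout, and a value need not mean the same in both lists, whose depths are not known.

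The second set holds, for each chromosome, a window whose region had the largest -log10 q among tested genes' windows found in 1 given list only. That list was the vehicle list for the chromosomes called gene-dense and the MS275 list for those called gene-poor. Windows found only in the opposite list were not considered, so which list each window came from was set by the choice. The set was chosen after the values were seen, to show what list-specific promoters look like. Nsg2 (a neuronal vesicle protein, chr11:32000169-32000468, plus strand) and Acta2 (smooth muscle actin, chr19:34255324-34255623, minus strand) overlapped a vehicle region only. Gbp3 (an interferon-induced GTPase, chr3:142559794-142560093, plus strand) and Ccdc125 (chr13:100669231-100669530, plus strand) overlapped an MS275 region only.
Nsg2: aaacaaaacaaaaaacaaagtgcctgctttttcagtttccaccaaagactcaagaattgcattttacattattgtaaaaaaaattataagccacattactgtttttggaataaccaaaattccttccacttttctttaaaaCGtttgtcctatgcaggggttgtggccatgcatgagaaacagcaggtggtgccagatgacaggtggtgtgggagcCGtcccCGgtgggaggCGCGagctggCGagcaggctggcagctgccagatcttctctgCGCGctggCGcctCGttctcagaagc
Acta2: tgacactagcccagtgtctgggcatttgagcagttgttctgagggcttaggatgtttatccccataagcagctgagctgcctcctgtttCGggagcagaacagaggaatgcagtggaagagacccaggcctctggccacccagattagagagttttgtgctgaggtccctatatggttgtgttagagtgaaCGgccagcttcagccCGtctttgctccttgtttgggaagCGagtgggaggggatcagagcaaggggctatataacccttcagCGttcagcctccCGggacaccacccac
Gbp3: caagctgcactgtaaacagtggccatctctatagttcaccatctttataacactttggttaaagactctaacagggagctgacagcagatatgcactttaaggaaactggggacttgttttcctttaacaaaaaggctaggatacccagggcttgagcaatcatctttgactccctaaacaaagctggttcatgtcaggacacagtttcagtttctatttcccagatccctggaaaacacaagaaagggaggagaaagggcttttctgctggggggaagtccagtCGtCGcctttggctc
Ccdc125: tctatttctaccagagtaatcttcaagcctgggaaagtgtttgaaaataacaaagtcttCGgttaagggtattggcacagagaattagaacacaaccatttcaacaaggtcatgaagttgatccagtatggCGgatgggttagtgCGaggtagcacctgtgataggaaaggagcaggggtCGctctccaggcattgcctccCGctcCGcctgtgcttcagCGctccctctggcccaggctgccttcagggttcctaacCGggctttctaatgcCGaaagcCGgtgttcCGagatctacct

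These windows held 10, 6, 2 and 11 CG pairs, fewer than any window of the first set. The -log10 q of their regions was 10.4 for Nsg2, 5.9 for Acta2, 7.97 for Gbp3 and 5.45 for Ccdc125. RNA of the 4 genes passed no test. Nsg2 was at 186 ± 8.55 CPM (counts scaled to a fixed library size) in vehicle and 205 ± 11.8 CPM with MS275 (SD, n = 3), and Gbp3 at 9.58 ± 2.58 and 11.1 ± 1.04 CPM.

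Chromosome 19 had the lowest number of MS275 regions per 100 vehicle regions of the 19 autosomes, 74.3 (71.1 to 77.5), and chromosome 11 the second lowest, 76.8 (74.8 to 78.9). Chromosome 3 had the highest, 113 (109.5 to 117), and chromosome 13 the second highest, 104.7 (101 to 108). The whole lists gave 90.9. Just outside the choice lay chromosome 9 at 79.8 and chromosome 18 at 99.1. As pairs, chromosomes 11 and 19 gave 76.1 MS275 regions per 100 vehicle regions (74.4 to 77.9) and chromosomes 3 and 13 gave 109 (106.7 to 112). In covered sequence rather than regions the values were 74.1 and 103.

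**Figure D1:**
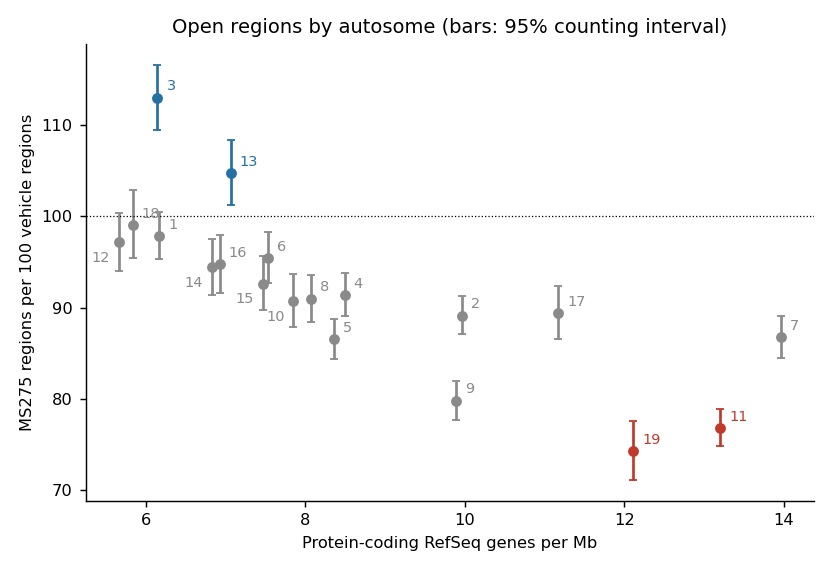
MS275 regions per 100 vehicle regions (vertical axis) against protein-coding RefSeq genes per Mb (horizontal axis) for the 19 autosomes, with 95% counting intervals. Chromosomes 11 and 19 (red) lie lowest at 76.8 and 74.3, chromosomes 3 and 13 (blue) highest at 113 and 104.7, and the dotted line marks 100.

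The names gene-dense and gene-poor held only in part. By protein-coding genes, chromosomes 11 and 19 ranked 2 and 3 with 13.2 and 12.1 per Mb, behind chromosome 7 with 13.97, whose value was 86.8. Chromosome 3 ranked 17 of 19 with 6.15 coding genes per Mb and chromosome 13 ranked 13 with 7.07. By all RefSeq genes, chromosome 13 ranked 7 of 19 with 19.3 per Mb and was not gene-poor. Chromosomes 12, 18 and 1, which had about as few coding genes per Mb as chromosome 3 (5.66, 5.84 and 6.17), gave 97.2, 99.1 and 97.9. Across the 19 autosomes the ratio of the lists fell with coding gene density (Spearman's rho -0.88), and with the density of all RefSeq genes (-0.68), the count used for bins. Across the 15 autosomes other than these 4, the values were -0.87 and -0.64. Chromosomes are not replicates, and all share the same 2 lists.

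The size and direction of these values depended on the strength of the regions counted. A fixed limit on q need not be equally strict in both lists. With entries of -log10 q of at least 5, chromosomes 3 and 13 gave 79.5 MS275 regions per 100 vehicle regions in place of 109, so that the MS275 list was the shorter there too. The same filter gave 62.9 on chromosomes 11 and 19 and 71.5 over the whole lists. The order held: chromosomes 19 and 11 ranked first and second lowest and chromosomes 3 and 13 highest and second highest, also when both lists were cut to the same number of entries (80.4 and 114).

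Within ranks of strength the pairs differed in the same direction. Each whole list was ranked by -log10 q and split into 3 classes of nearly equal size, with bounds at 2.04 and 3.9 in the vehicle list and 1.625 and 3.3 in the MS275 list. The bounds and lengths of the lists differ, so the values by class are a description. From the weakest to the strongest class, the whole lists gave 96.3, 89.0 and 87.5 MS275 regions per 100 vehicle regions. Chromosomes 3 and 13 gave 127 (121.5 to 132), 107 (103 to 111.8) and 97.3 (93.7 to 101), above the whole lists in each class. Chromosomes 11 and 19 gave 79.3, 74.2 and 74.9, below them in each class. Within the vehicle list the median -log10 q was 3.1 on chromosomes 3 and 13 and 2.71 on chromosomes 11 and 19, and within the MS275 list 2.35 and 2.28. Median widths were 404.5 and 382 bp on chromosomes 3 and 13 and 442 and 429 bp on 11 and 19.

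The counts of the pairs differed mainly in regions of 1 list only. Shared regions count in both lists, so differences in the ratio rest mostly on the others by construction. Vehicle regions that overlapped an MS275 region numbered 7863 on chromosomes 11 and 19 and 7241 on chromosomes 3 and 13. On chromosomes 11 and 19, 9579 vehicle regions met no MS275 region by even 1 bp, and 5296 MS275 regions met no vehicle region. Chromosomes 3 and 13 held 6629 and 7812 of these. As shares, 45.1% of vehicle regions on chromosomes 11 and 19 overlapped an MS275 region, and 60.1% of MS275 regions overlapped a vehicle region. For chromosomes 3 and 13 the shares were 52.2% and 48.4%. Regions of 1 list were narrow and weak in every case. MS275-only regions on chromosomes 3 and 13 had a median width of 314.5 bp and a median -log10 q of 1.83, against 498 bp and 3.87 for shared ones, and 4.71% of them reached a -log10 q of 5. On chromosomes 11 and 19 the vehicle-only regions had a median width of 360.0 bp and a median -log10 q of 2.15, and 8.72% reached 5.

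Gene ends differed least between the chromosome pairs. A region was placed at a gene end if it came within 1000 bp of either end of a RefSeq gene. The table used gives no strand for genes, so starts and stops were pooled. At gene ends, chromosomes 11 and 19 gave 3655 vehicle and 3124 MS275 regions, or 85.5 per 100 (81.5 to 89.7). Chromosomes 3 and 13 gave 2527 and 2525, or 99.9 (94.5 to 106). Inside genes but away from their ends, the values were 73.0 (70.8 to 75.2) and 107 (103 to 110.4). Outside genes they were 75.4 (71.8 to 79.2) and 119 (114 to 124). Chromosome 3 outside genes gave the highest value of any chromosome and location among the 4, with 2215 vehicle and 2875 MS275 regions, or 129.8 (123 to 137). Chromosome 13 outside genes gave 106 (99.9 to 113). The remaining chromosomes together gave 91.6 at ends, 87.1 inside genes and 99.5 outside them. Regions at gene ends were also wider and stronger, with median widths of 620.0 to 663.5 bp across both lists and both chromosome pairs.

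Within each chromosome pair, 1 Mb bins with more genes had fewer MS275 regions per 100 vehicle regions. The 4 chromosomes made 465 bins, of which 9 held no gene and 12 held no region in either list. These 12 were the first 3 bins of each chromosome. On chromosome 11 RefSeq placed 34, 8 and 1 genes in them, placements that were not checked. On chromosomes 3 and 13, bins of 0 to 4 genes gave 591 vehicle and 923 MS275 regions, or 156 per 100 (141 to 173.5). Bins of 5 to 9 genes gave 131, of 10 to 19 genes 114, of 20 to 39 genes 98.5 and of 40 or more genes 86.2 (79.2 to 93.7). On chromosomes 11 and 19 the same classes gave 105 (88.1 to 126), 92.4, 84.3, 70.7 and 76.5 (73.2 to 79.9). The order was broken there by the last class, which lay above the class before it. The remaining chromosomes gave 127, 112, 96.8, 83.4 and 81.5, so the gradient was not particular to these 4.

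In bins matched for gene count a gap between the pairs remained. The chromosomes were chosen at the ends of this ratio, so the gap and its intervals are a description and carry no test. In each of the 5 classes, chromosomes 11 and 19 lay below chromosomes 3 and 13, and below the remaining chromosomes. The intervals of the pairs were apart in the first 4 classes and overlapped in bins of 40 or more genes, where chromosomes 11 and 19 gave 76.5 (73.2 to 79.9) and chromosomes 3 and 13 gave 86.2 (79.2 to 93.7). Chromosome 19 showed little gradient on its own. Its classes gave 85.5, 72.1, 79.1, 70.3 and 77.1, against 115, 109.6, 87.5, 70.8 and 76.3 on chromosome 11. On chromosome 3 they ran from 177 in bins of 0 to 4 genes (321 vehicle and 567 MS275 regions) to 83.8 in bins of 40 or more. On chromosome 13 they ran from 132 to 92.2 in bins of 20 to 39 genes, with 96.4 (79.6 to 117) in the 6 bins of 40 or more.

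With entries of -log10 q of at least 5, the gradient was lost in the sums over chromosomes 11 and 19. Their classes gave 65.2, 60.8, 58.7, 60.7 and 68.9. These chromosomes differed in direction. Chromosome 11 gave 74.4, 70.9, 61.7, 61.1 and 67.0. Chromosome 19 gave 47.8, 41.8, 52.7, 59.9 and 75.8, higher in bins of 40 or more genes than in sparser bins. Its intervals for 5 to 9 and for 40 or more genes, 25.9 to 65.9 and 63.3 to 90.6, overlapped. Its first class rested on 23 vehicle and 11 MS275 regions. For chromosomes 3 and 13 the gradient was shallower, at 100, 91.5, 77.3, 76.2 and 80.8, and the first class rested on 134 regions in each list. With lists of equal length, the classes on chromosomes 3 and 13 gave 163, 136, 119, 103 and 90.8, and on chromosomes 11 and 19 109, 95.4, 88.6, 75.0 and 80.6. Beside this, RefSeq promoter windows on chromosomes 11 and 19 had a higher median G and C content (55.3%) than those on chromosomes 3 and 13 (50.7%). The base composition of the regions themselves was not computed, and its part in the difference was not tested.

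For the chromosomes taken as pairs, the gradient away from gene ends was steeper than at them. Regions away from ends on chromosomes 3 and 13 went from 157.5 MS275 regions per 100 vehicle regions in bins of 0 to 4 genes to 83.3 in bins of 40 or more. At gene ends the values went from 136 (86.7 to 215.5) to 89.7 (79.2 to 102), with 36 vehicle regions behind the first. On chromosomes 11 and 19, regions away from ends went from 105.5 to 71.7, and regions at ends from 100 (35.2 to 284), which rests on 9 regions in each list, to 86.6. The lowest value of the pairs was 67.7 (65.2 to 70.3), away from ends in bins of 20 to 39 genes on chromosomes 11 and 19. It came from 6931 vehicle and 4692 MS275 regions. Chromosomes 19 and 13 alone did not show the steeper fall away from ends. From the first to the last class, chromosome 19 went from 83.8 to 70.6 away from ends and from 133 (22.6 to 910) to 88.7 at them. Chromosome 13 went from 132 to 116 (82.9 to 164) away from ends and from 133 (64.9 to 280) to 87.9 at them.

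**Figure D2:**
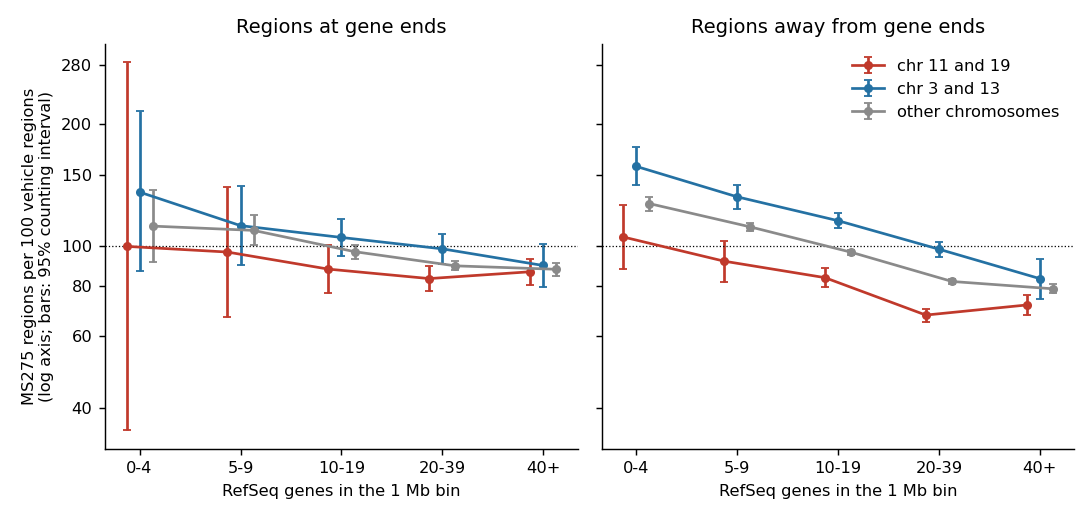
MS275 regions per 100 vehicle regions (vertical axis, log scale) by the number of RefSeq genes in the 1 Mb bin (horizontal axis), for regions within 1000 bp of a gene end (left) and away from gene ends (right), with 95% counting intervals. Away from ends chromosomes 3 and 13 (blue) fall from 157.5 to 83.3 and chromosomes 11 and 19 (red) from 105.5 to 71.7, while at ends the intervals of the sparsest class are wide.

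Single bins moved the same way as the sums on most of each chromosome. Among bins with at least 20 regions over both lists, 137 of 172 on chromosomes 11 and 19 (79.7%) held more vehicle than MS275 regions. On chromosomes 3 and 13, 191 of 265 (72.1%) held more MS275 regions. The share with more vehicle regions was 87.3% on chromosome 19, 76.1% on chromosome 11, 32.7% on chromosome 13 and 20.4% on chromosome 3. The bins share both lists, and their base composition was not computed. As a description across them, Spearman's rho between gene count and the ratio was -0.34 on chromosomes 11 and 19 (172 bins) and -0.61 on chromosomes 3 and 13 (265 bins). Between the number of regions in the bin, over both lists, and the ratio, rho was about as strong, at -0.31 and -0.64. The separate parts of gene count and region count were not tested.

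**Figure D3:**
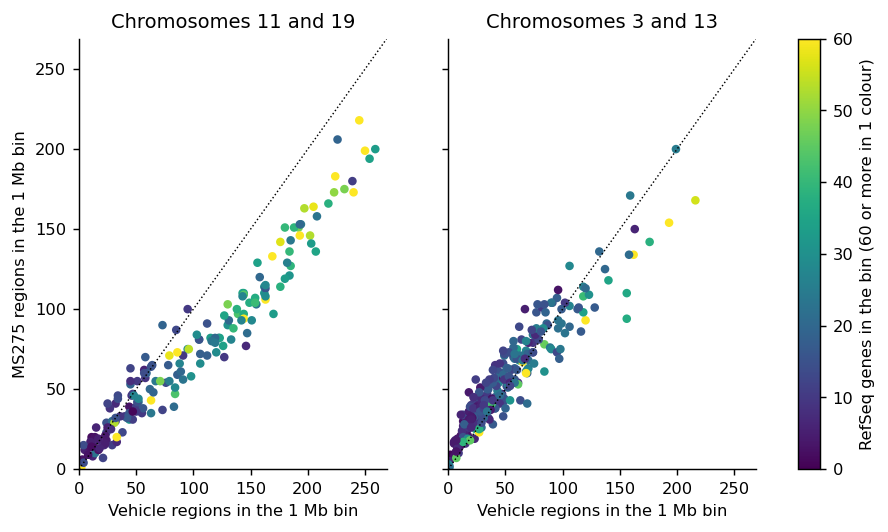
MS275 regions (vertical axis) against vehicle regions (horizontal axis) in each 1 Mb bin of chromosomes 11 and 19 (left) and 3 and 13 (right), coloured by the number of RefSeq genes in the bin, with a dotted line at equal counts. Of bins with at least 20 regions, 79.7% on the left lie below the line and 72.1% on the right lie above it.

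The bins with most genes, picked by gene count alone, differed in what their genes are. On chromosome 11 the bin from 69 to 70 Mb (chr11:69000001-70000000) held 101 genes, 62 of them protein-coding, among them Trp53, the histone demethylase gene Kdm6b and a group of transfer RNA genes. It had 240 vehicle and 173 MS275 regions. On chromosome 19 the bin chr19:5000001-6000000 held 70 genes, including Malat1 and Cfl1, with 250 and 199 regions. On chromosome 3 the bin chr3:96000001-97000000 held 89 genes, including a histone cluster and many transfer RNA genes, with 120 and 93 regions, against the direction of that chromosome as a whole. On chromosome 13 the bin chr13:23000001-24000000 held 129 genes, of which 53 were protein-coding, with vomeronasal receptor, transfer RNA and histone genes. It had 65 and 67 regions, few for its gene count, and 53 of the vehicle regions lay at gene ends.

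Chromosome arrays of related genes show how uneven gene-dense sequence is. Members were taken by symbol and chromosome. The 10 Hoxb genes on chromosome 11, homeobox factors of the body axis that stay on in adult ganglia, held 31 vehicle and 25 MS275 regions, or 34.3 and 27.7 per 100 kb of gene. The 54 Hist1 genes on chromosome 13, which encode histones, held 43 and 35, or 26.3 and 21.4 per 100 kb. The 83 olfactory receptor genes on chromosome 11 held 8 and 5, or 2.42 and 1.51 per 100 kb, and the 63 on chromosome 19 held 2 and 1. The 25 prolactin family genes on chromosome 13 held 1 vehicle region and no MS275 region. Olfactory receptor and prolactin genes are used in nose and placenta, and none of them passed the RNA filter. S100a genes on chromosome 3, which encode calcium-binding proteins, went from 20 to 28 regions, a ratio whose interval (76.1 to 262 per 100) holds 100.

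A larger share of promoter windows was open in both lists on chromosomes 11 and 19 than on chromosomes 3 and 13. Of 3333 RefSeq windows on chromosomes 11 and 19, 52.1% overlapped a region in both lists, 5.64% in the vehicle list only, 2.7% in the MS275 list only and 39.5% in neither. Of 3164 on chromosomes 3 and 13 the shares were 44.9%, 3.79%, 3.38% and 47.9%. Thus windows of 1 list only numbered 188 for vehicle and 90 for MS275 on the first pair, and 120 and 107 on the second. Windows in both lists were rich in CG pairs, with medians of 22 on chromosomes 11 and 19 and 20.0 on chromosomes 3 and 13. Windows in 1 list only had medians of 4.5 to 6 CG pairs, near the 3 of windows in neither list.

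**Figure D4:**
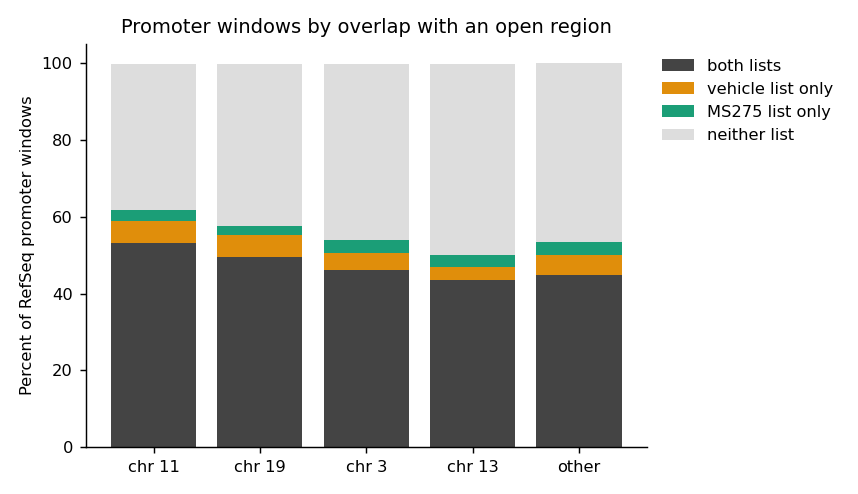
Share of RefSeq promoter windows of 300 bp (vertical axis, percent) that overlapped a region in both lists, in 1 list or in neither, for chromosomes 11, 19, 3 and 13 and for the other chromosomes. Windows in both lists make up 53.3% on chromosome 11, 49.4% on 19, 46.1% on 3 and 43.6% on 13.

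Short motifs were searched on both strands of these windows. GGGCGG, the core of the GC box, was in 35.7% of all 32851 mouse windows of this length. It was in 67.2% of the windows in both lists on chromosomes 11 and 19 and in 61.6% on chromosomes 3 and 13, against 10.2% and 6.86% of windows in neither list. TATAAA, the box that binds TBP, was in 13.6% of all windows, in 5.47% and 8.37% of those in both lists and in 21.8% and 22.4% of those in neither. CCAAT was in 37.4% of all windows, and in 37.6% and 35.8% of those in both lists. CACGTG, an E-box, was in 7.15% of all windows. Among the printed windows it lies in that of Eif5a.

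RNA of the genes on these chromosomes was read from a fit over all 16819 tested genes (edgeR's quasi-likelihood test, Benjamini-Hochberg adjusted p under 0.05). Over all tested genes, 5.1% rose and 5.89% fell with MS275, or 11.0% in either direction. Libraries held 34992533 to 60370523 reads assigned to genes. Sensory neuron markers (Prph, Scn10a, Isl1 and Tubb3) summed to 5694 to 6435 CPM across the 6 libraries. Skeletal muscle genes stood apart: 15 of 23 tested rose, with sums of 125.4 to 188.8 CPM in vehicle libraries and 977.6, 232.9 and 268.8 CPM in MS275 replicates 1, 2 and 3. The satellite glia markers Fabp7 and Kcnj10 summed to 238.3, 257.8 and 245 CPM in vehicle libraries and 187.9, 223.3 and 184.7 CPM with MS275, without overlap, and 1 of them, Fabp7, fell. The part of muscle and satellite glia in the results on genes was not tested. In bulk tissue, a change in the share of a cell type and a change in RNA per cell cannot be told apart.

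Similar shares of genes changed on both chromosome pairs. On chromosomes 11 and 19, 109 of 1843 tested genes rose (5.91%) and 108 fell (5.86%), with a median log2 fold change of 0.02. On chromosomes 3 and 13, 81 of 1373 rose (5.9%) and 85 fell (6.19%), with a median of -0.002. All 4 shares lie near the background. Of single chromosomes, chromosome 3 had 57 higher and 45 lower of 787, and chromosome 13 had 24 higher and 40 lower of 586.

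These counts rest on the libraries used. The count over all tested genes moved with them. With vehicle replicate 1, 2 or 3 left out, genes higher on chromosomes 11 and 19 numbered 28, 19 and 47 and lower genes 24, 19 and 51. On chromosomes 3 and 13 the counts were then 18, 12 and 33 higher and 17, 10 and 40 lower. Over all tested genes, 1.14%, 0.742% and 1.95% were then higher and 1.04%, 0.783% and 2.28% lower. With MS275 replicate 3 left out, 54 rose and 57 fell on the first pair and 49 rose and 38 fell on the second, beside 2.61% and 2.53% of all tested genes. With MS275 replicate 2 left out, 189 rose on the first pair (10.1%, beside 8.11% of all tested genes). MS275 replicate 1 had the highest muscle sum, and with it left out 124 rose and 112 fell on the first pair and 78 rose and 82 fell on the second, beside 5.43% and 5.59% of all tested genes.

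The share of a library's reads that came from each chromosome pair differed little between treatments. Chromosomes 11 and 19 took 12.6%, 12.6% and 12.5% of assigned reads in the vehicle libraries and 12.5%, 12.4% and 12.6% in the MS275 libraries. The means were 12.6 ± 0.0298 and 12.5 ± 0.0702% (SD, n = 3; exact permutation test, 2-sided, p = 0.3). Chromosomes 3 and 13 took 7.99 ± 0.0447% and 7.91 ± 0.0963% (exact permutation test, n = 3, p = 0.3). Chromosome 11 alone took 9.05%, 9.04% and 9.02% in vehicle and 8.91%, 8.89% and 8.99% with MS275, without overlap, and chromosome 19 took 3.55%, 3.54% and 3.52% against 3.58%, 3.56% and 3.6%. Both gave p = 0.1 in the exact permutation test, the smallest that 3 against 3 libraries allow, and they point in opposite directions.

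In bins of more genes a larger share of tested genes was called higher, a trend that was not itself tested. On the 4 chromosomes, 0 of 24 tested genes rose in bins of 0 to 4 genes, 3 of 109 (2.75%) in bins of 5 to 9, 31 of 657 (4.72%) in bins of 10 to 19, 78 of 1365 (5.71%) in bins of 20 to 39 and 78 of 1061 (7.35%) in bins of 40 or more. In the first class, 1 gene was higher at an unadjusted p under 0.05 and DESeq2 called 1 higher. The shares that fell were 4.17%, 6.42%, 7.0%, 6.3% and 5.0%. On the remaining chromosomes the share that rose went from 3.06% to 7.24% over the same classes. The median log2 fold change moved little, from -0.04 to 0.02 on the 4 chromosomes.

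The ratio of the lists and the change of RNA were also set against each other by bin. Over 233 bins with at least 20 regions and 5 tested genes, Spearman's rho between the ratio of the lists and the median log2 fold change was -0.07. It was 0.04 on chromosomes 11 and 19 (117 bins) and -0.06 on chromosomes 3 and 13 (116 bins). By chromosome, it was 0.29 on chromosome 19 (35 bins), -0.055 on chromosome 11, -0.11 on chromosome 3 and -0.0071 on chromosome 13. Bins with at least 120 MS275 regions per 100 vehicle regions held 391 tested genes, of which 16 rose (4.09%) and 27 fell (6.91%). Bins under 75 held 912, of which 47 rose (5.15%) and 63 fell (6.91%). Bins of 75 to under 100 held 1480, of which 107 rose (7.23%) and 72 fell (4.86%), and bins of 100 to under 120 held 421, of which 20 rose (4.75%) and 31 fell (7.36%). Beside these stand 5.1% and 5.89% of all tested genes.

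Calls were also counted by whether a gene's promoter window was open. Of 2190 tested genes on the 4 chromosomes with a window in both lists, 110 rose (5.02%) and 159 fell (7.26%). Of 266 with windows in neither list, 22 rose (8.27%) and 3 fell (1.13%). The latter had a median level of 1.37 CPM, against 25.8 CPM. Over all placed genes the shares were 4.59% and 7.33% for both lists and 7.83% and 1.55% for neither. Of the 30 genes with a window in the MS275 list only, 4 rose and 0 fell: Pgam2, Fbp2, Ankrd34a and Ckmt2. At an unadjusted p under 0.05, 7 were higher and 2 lower, and DESeq2 called 5 and 0. Of the 83 with a window in the vehicle list only, 7 rose (8.43%) and 1 fell. Over all placed genes, 8.51% rose and 0.851% fell with a window in the MS275 list only, and 8.09% and 1.89% with one in the vehicle list only. Pgam2, Fbp2 and Ckmt2 encode enzymes known from muscle energy metabolism.

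The genes named next are, unless given as members of a densest bin or an array, those with the largest changes on each chromosome among called genes with a mean log2 CPM of at least 1 and groups without overlap. Skeletal muscle genes and provisional symbols were passed over, and scarcer genes can have larger fold changes. On chromosome 11, Rara, the retinoic acid receptor alpha, stood at 7.17, 7.68 and 6.46 CPM in vehicle replicates 1 to 3 and 14.1, 16.8 and 14.9 CPM with MS275 (log2 fold change 1.10, SE 0.10, edgeR adjusted p = 0.00117). The groups did not overlap. The Rara gene held 17 vehicle and 16 MS275 regions. Pipox, a peroxisomal oxidase, stood at 1.68, 2.0 and 2.35 against 4.87, 3.77 and 4.4 CPM (1.11, SE 0.16). Slc16a3, a lactate transporter, and Ccl9, a chemokine, rose by 1.10 and 1.05 on the log2 scale, and both were highest in MS275 replicate 1 (8.69 and 10.7 CPM). Slc16a3 lost its call without vehicle replicate 1 or 2 (edgeR adjusted p up to 0.0681), and Ccl9 without any 1 vehicle library (up to 0.082).

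Under the same limits, the genes that fell most on chromosome 11 were Trim65, Cbx8, Pwwp2a and Maml1. Cbx8, a Polycomb subunit that binds methylated histone H3, stood at 8.47, 8.27 and 8.22 CPM in vehicle libraries and 4.89, 4.97 and 5.59 CPM with MS275 (-0.70, SE 0.09). Pwwp2a, a reader of histone variant nucleosomes, went from 10.9 ± 0.376 to 6.91 ± 0.509 CPM (SD, n = 3), and Maml1, a coactivator of Notch, from 9.48 ± 0.696 to 6.12 ± 0.358 CPM. Trim65, a ubiquitin ligase, fell by 0.72 on the log2 scale, a call lost without vehicle replicate 1 or 2 or MS275 replicate 3 (edgeR adjusted p up to 0.0901). In the densest bin, Polr2a, the largest subunit of RNA polymerase II, went from 82.4 ± 3.42 to 66.1 ± 4.67 CPM (-0.32, SE 0.06), a call lost without vehicle replicate 2 or 3 (adjusted p up to 0.0648). There Kcnab3 and Tnfsf13 rose by 0.55 and 1.38, calls lost without any 1 vehicle library and without MS275 replicate 1 or 3 (up to 0.131 and 0.168).

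On chromosome 19, Suv420h1 (Kmt5b in RefSeq), a methyltransferase of histone H4 that overlaps Gm16066, was among the genes of smallest p on the 4 chromosomes. It stood at 34.2, 36.2 and 33.6 CPM in vehicle libraries and 19.1, 19 and 18.4 CPM with MS275 (edgeR adjusted p = 0.000576), and its gene held 10 vehicle and 5 MS275 regions. Kcnk18, a potassium channel of sensory neurons, went from 11.7 ± 0.912 to 7.18 ± 0.904 CPM, Pprc1, a coactivator of mitochondrial biogenesis, from 24.9 ± 2.05 to 15.5 ± 2.3 CPM, and Taf5, a TFIID subunit, from 8.57 ± 0.376 to 5.59 ± 0.432 CPM (SD, n = 3).

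The long nuclear RNAs Malat1 and Neat1, which lie near each other in the densest bin of chromosome 19, both rose. Malat1 stood at 352, 395 and 369 CPM in vehicle libraries and 753, 556 and 569 CPM with MS275 (0.75, SE 0.10). Neat1, the scaffold of paraspeckles, stood at 86.1, 99.1 and 96.6 against 171, 142 and 157 CPM (0.74, SE 0.07). The groups did not overlap for either. Their genes held 4 and 6 vehicle regions and 3 and 8 MS275 regions. Ehbp1l1, a membrane traffic protein in the same bin, rose from 37.5 ± 0.775 to 55.2 ± 1.79 CPM (SD, n = 3).

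Lrrc10b rose on chromosome 19 from 1.77 ± 0.169 to 3.42 ± 0.198 CPM (SD, n = 3). Ppp1r3c, which targets a phosphatase to glycogen, rose by 1.24 on the log2 scale. Its MS275 replicate 1 stood at 11.7 CPM against 5.31 and 5.71 CPM in the other libraries of that group, and its call was lost without any 1 vehicle library (edgeR adjusted p up to 0.117). Ifit3, an interferon-induced gene, rose by 0.83, a call lost without vehicle replicate 1 or 2 or MS275 replicate 3 (up to 0.113). Of the 6 Ifit genes on chromosome 19, Ifit3 alone passed the test.

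On chromosome 3, Txnip stood at 60.1, 58.5 and 70.4 CPM in vehicle libraries and 159, 99.5 and 131 CPM with MS275 (1.05, SE 0.14, edgeR adjusted p = 0.00451). Its promoter window is printed above, and its gene held 1 vehicle and 3 MS275 regions. F3, tissue factor, went from 18.4 ± 2.28 to 35.1 ± 7.89 CPM (SD, n = 3). Car3 and Car14, both carbonic anhydrases, rose by 1.15 and 1.05. Car3 stood at 11.0, 4.04 and 7.82 CPM with MS275 and lost its call without any 1 vehicle library and without MS275 replicate 1 or 3 (adjusted p up to 0.158). Car14 lost it without vehicle replicate 1 or 2 (up to 0.0606). In the densest bin Ankrd34a and Sv2a, the latter a synaptic vesicle protein, rose by 0.69 and 0.22, calls lost without vehicle replicate 1 or 2 (up to 0.0648 and 0.0841).

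Phf17 (Jade1), a subunit of a histone acetyltransferase complex, fell on chromosome 3 from 17.4 ± 2.11 to 10.8 ± 0.966 CPM (SD, n = 3), while its gene held 13 vehicle and 15 MS275 regions. Plk4, a kinase of centriole duplication, Fnip2, a folliculin partner, and E2f5, a cell cycle factor, fell by 0.59, 0.53 and 0.49 on the log2 scale. All 3 lost their calls without vehicle replicate 1 or 2, and E2f5 also without MS275 replicate 3 (edgeR adjusted p up to 0.0543, 0.065 and 0.0871). Of 11 tested S100a genes, S100a4, S100a13 and S100a3 rose, by 0.44, 0.23 and 1.05, with a list median of 0.23. Each lost its call without any 1 vehicle library, and S100a3 without any library (adjusted p up to 0.0654, 0.128 and 0.153).

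On chromosome 13, Ly86, an immune cell surface protein, stood at 121, 129 and 135 CPM in vehicle libraries and 215, 244 and 223 CPM with MS275 (0.83, SE 0.06, edgeR adjusted p = 0.000576). Its gene held 3 regions in each list, and its promoter windows were in neither. Sox4, a transcription factor of developing neurons, went from 26.5 ± 1.8 to 38.5 ± 1.01 CPM (SD, n = 3). Fbp2, an enzyme of gluconeogenesis in muscle, rose by 0.82 and lost its call without vehicle replicate 1 (adjusted p = 0.0505). Fgd3, an exchange factor for Cdc42, rose by 0.58 and lost it without any 1 vehicle library and without MS275 replicate 1 or 3 (up to 0.136).

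Mier3, a partner of histone deacetylases, fell on chromosome 13 from 12.6, 14.4 and 13 CPM in vehicle to 7.86, 6.77 and 7.3 CPM with MS275 (-0.87, SE 0.09). Nr2f1, an orphan nuclear receptor, went from 23.2 ± 0.893 to 15.2 ± 0.965 CPM (SD, n = 3). Ripk1, a kinase of cell death signalling, fell by 0.77 and lost its call without vehicle replicate 2 (edgeR adjusted p = 0.0681).

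Zinc finger genes on chromosome 13 were lower as far as they passed the test. Of 35 tested Zfp genes, 0 rose and 7 fell by edgeR, and 0 and 8 by DESeq2, with a median log2 fold change of -0.30 against 0.00 over all tested genes. At an unadjusted p under 0.05, 0 were higher and 19 lower. Over all tested genes, 5.89% fell by edgeR, 6.81% by DESeq2 and 14.9% at an unadjusted p under 0.05, and 5.1%, 6.84% and 13.6% were higher. Zfp273 stood at 4.66, 4.36 and 4.89 CPM in vehicle libraries and 2.17, 2.38 and 2.4 CPM with MS275 (-1.0, SE 0.12). It was the only 1 of the 7 whose call held without each library in turn. The others were Zfp322a, Zfp369, Zfp712, Zfp748, Zfp874a and Zfp874b, with log2 fold changes from -0.44 to -0.36, and each lost its call without vehicle replicate 2. Zfp genes of such clusters are close copies, so reads may have been split between them. The Zfp genes held 61 vehicle and 53 MS275 regions. In the densest bin Abt1, a transcription activator, fell by 0.47, a call lost without vehicle replicate 2 (edgeR adjusted p = 0.0611). Btn2a2 rose by 1.02 and lost its call without any 1 vehicle library and without MS275 replicate 1 or 3 (up to 0.137).

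**Figure D5:**
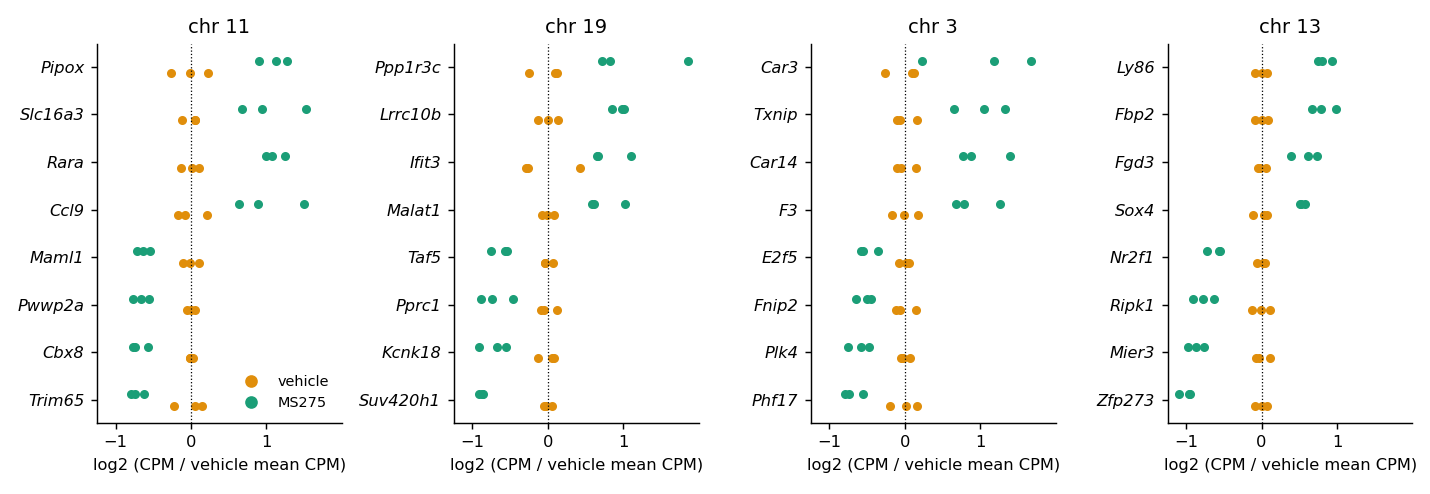
RNA level of the 8 named genes of each chromosome in each library, as log2 of CPM over the mean CPM of the vehicle libraries (horizontal axis), with vehicle libraries in orange and MS275 libraries in green. In every gene shown the groups do not overlap, which the rule for naming them required.

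Muscle genes on these chromosomes moved with MS275 replicate 1. The 7 tested on chromosome 11 (sarcomeric myosins, Pgam2 and Tcap) summed to 7.31, 4.77 and 21.8 CPM in vehicle libraries and 247.9, 27.4 and 34.2 CPM with MS275, and 3 of them rose. Myh4, a myosin of fast fibres, stood at 2.69, 0.295 and 10.4 against 126, 20.9 and 13.5 CPM, and lost its call without any 1 vehicle library and without MS275 replicate 1 or 3 (edgeR adjusted p up to 0.176). Leaving the muscle list out moved the read share of chromosomes 11 and 19 from -0.0643 to -0.0704 percentage points (MS275 minus vehicle). The part of muscle RNA in the changes of Car3, Fbp2 and Ppp1r3c was not tested.

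The other arrays are small, and their calls stand beside 5.1% higher and 5.89% lower of all tested genes. Of 9 tested Ccl chemokine genes 3 rose (Ccl1, Ccl5 and Ccl9) and 0 fell, with a median log2 fold change of 0.69, and Ccl1 and Ccl5 were at or below 1.34 CPM in every library. At an unadjusted p under 0.05, 7 Ccl genes were higher and 0 lower, and DESeq2 called 5 higher and 0 lower. Over all tested genes, 13.6% were higher and 14.9% lower at that unadjusted p, and 6.84% and 6.81% by DESeq2. Ccl1 lost its call without any 1 vehicle library (edgeR adjusted p up to 0.122), and Ccl5 without vehicle replicate 1 or 2 or MS275 replicate 1 or 3 (up to 0.187). Of 8 tested Hoxb genes, Hoxb7 rose by 0.37, a call lost without any 1 vehicle library and without MS275 replicate 1 or 3 (up to 0.152). Among type I keratin genes Krt25 rose by 0.77 and Krt14 fell by 1.43, both calls lost without any 1 vehicle library or MS275 replicate 3, and that of Krt14 also without MS275 replicate 2 (up to 0.103 and 0.116). None of 10 tested Hist1 genes on chromosome 13 passed the edgeR test. At an unadjusted p under 0.05, 1 of them was higher and 0 lower, and DESeq2 called 1 higher.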

How the data were processed

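The authors deposited whole-number read counts per gene for 6 RNA libraries, and 1 peak list per treatment that combines 3 ATAC libraries. The deposited peak columns are, per the file's layout, a score and a fold enrichment ratio for each peak. The last columns used are a deposited p-value and q-value, each as its -log10. The submitters' processing notes name mm10, FastQC 0.10.1, STAR 2.7.0, R 3.5.0, limma 3.38.3 and edgeR 3.24.3. Peak caller, read counter and strand setting: not given in the sources used here. Reads of overlapping or antisense genes may therefore be shared between them. ATAC depth is not known.

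Overlapping entries were merged within each list (277369 vehicle and 246602 MS275 entries). Lists were compared by overlap of at least 1 bp. Regions were assigned to 1 Mb bins by their midpoints, and RefSeq genes (GRCm38.p6) likewise. Of tested genes, 15943 of 16819 (94.8%) were placed, 1007 through synonyms. Promoter windows are those of RefSeq.

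The edgeR 4.0.16 fit (R 4.3.3) used TMM factors, filterByExpr and treatment as the only term. Rows naming no gene (18.9% to 20.6% of reads) were left out. The scripts were tested on simulated data. Replicates are biological triplicates per the labels, and no library pair agreed within sampling noise. Named genes had an adjusted p under 0.05, a mean log2 CPM of at least 1 and groups without overlap, with the 4 largest changes per direction and chromosome, plus up to 3 genes of smallest p in each densest bin and members of gene arrays. The chromosomes, lists and tests were chosen with earlier results of these data known. Alternatives covered peak strength, list length, overlap, window, bin size, normalisation, filter, DESeq2 1.42.0, the replicate block and each library left out. The strength and list-length settings per bin class were added after the data were seen. Some marker genes are not reported here.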

Additional observations from a re-analysis of the deposited data

How the results depend on the processing

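None of the 56 named calls reversed under the RNA settings run, of which DESeq2 gave an adjusted p for 53. Chromosomes 11 and 19 stayed below chromosomes 3 and 13 in every region count tried, a description, since the pairs were chosen on this ratio. With a -log10 q of at least 5, MS275 regions per 100 vehicle regions were 62.9 on chromosomes 11 and 19. They were 83.7 (78.1 to 89.8) at gene ends there and 48.9 away from them. Chromosomes 3 and 13 gave 79.5, with 88.9 (82.4 to 96.0) at ends, where the intervals of the pairs overlapped, and 74.7 away. Bins of 0 to 4 and of 40 or more genes gave 88.5 and 71.9. The share of vehicle regions that met an MS275 region was then 50.9% on chromosomes 11 and 19 and 58.8% on 3 and 13. With lists of equal length the values were 80.4 (78.2 away) and 114.0 (116.5 away), 82.7 in bins of 40 or more genes, and shares of 46.4% and 53.5%. With an overlap of 50% the shares were 32.4% and 41.1%. With bins of 500 kb the limit on genes was scaled to the bin size, and the sparsest class gave 128.5. Counting only genes that passed the RNA filter, bins of 0 to 4 such genes gave 114.8. That class held 7529 vehicle regions in place of 838, so its bins differ from those of the main setting. The cause of the shifts in the other settings was not tested.

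Leaving out 1 library gave 19 to 189 higher (1.01% to 10.1%) and 19 to 146 lower genes (1.01% to 7.79%) on chromosomes 11 and 19. On chromosomes 3 and 13 it gave 12 to 114 (0.86% to 8.18%) and 10 to 122 (0.717% to 8.76%). Of all tested genes, 0.742% to 8.11% were then higher and 0.783% to 8.03% lower. Of 56 named calls, 21 held without each library in turn. Without the filter the median log2 fold change on chromosomes 3 and 13 was 0.013. DESeq2 gave 152 higher and 126 lower genes on chromosomes 11 and 19 (8.25% and 6.84%) and 94 and 92 on 3 and 13 (6.85% and 6.7%). Of all tested genes it called 6.84% higher and 6.81% lower. Replicate numbers did not pair the libraries (correlations of deviations 0.0192, 0.111 and -0.0611). With the number as a replicate block the counts were 130 and 120 (7.05% and 6.51%), and 90 and 95 (6.55% and 6.92%). Beside them stand 5.83% and 6.58% of all tested genes. With the block, 5 named calls were lost (Btn2a2, Ccl5, Fgd3, S100a3 and Tnfsf13). ATAC depth is unknown, so no limit of detection can be given for a region absent from 1 list.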
